A study of Mus musculus with 8 samples.

Results

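The genes described here encode proteins of the zymogen granule, the store of digestive enzymes in the pancreatic acinar cell, and of the machinery that empties it. They were 10 of the 21434 genes in the deposited table, chosen by name: 6 granule proteins (Gp2, Cuzd1, Sycn, Zg16, Dmbt1 and Serpini2) and 4 exocytosis proteins (Vamp8, Vamp2, Rab3d and Rab27b). All 10 were found in the table, and all 10 passed the filter on low counts. RNA-seq was performed on pancreatic tissue of 4 Bach2KO and 4 Bach2WT mice, which were untreated and 18 weeks old. Bach2KO mice were homozygous for the allele of C57BL/6N-Bach2tm1b(EUCOMM)Wtsi/leg, from which Cre had excised a part of Bach2 in every tissue, and Bach2WT mice were wild type animals of that strain. Mice 1 and 2 of each genotype were females and mice 3 and 4 were males. The knockout was global, so that a value in the pancreas may follow from Bach2 in any cell of the animal. Whole tissue was sequenced, in which fewer cells of a type and less RNA per cell cannot be told apart.

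Acinar cells pack their enzymes with packaging and membrane proteins into granules that wait below the apical membrane. A rise in calcium after a meal lets the granules fuse with that membrane. Fusion needs a SNARE on the granule (a VAMP) that pairs with SNAREs on the target membrane, and small GTPases of the Rab family that mark the granule and bring it to its site of release. Gp2 is a lipid-anchored glycoprotein and the most abundant protein of the granule membrane. Cuzd1 is a membrane protein with CUB and zona pellucida domains. Syncollin (Sycn) and Zg16, a lectin, lie on the inner face of the granule membrane. Dmbt1, also called muclin in the mouse, is a large glycoprotein with scavenger receptor domains. Serpini2, or pancpin, is a secreted serpin, a class of protease inhibitors. Vamp8 and Vamp2 are the granule SNAREs, and Rab3d and Rab27b are the Rabs of the granule surface.

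The 250 bases before the start of transcription are shown for 4 of these genes, chosen to set 3 granule genes beside an exocytosis gene. Cuzd1 and Sycn had the most similar profiles over the 8 libraries among the 10 genes, Gp2 was the granule gene whose mean was higher in Bach2KO mice, and Rab3d stands for the exocytosis genes. The sequences are those of RefSeq on GRCm38.p6, written from 5′ to 3′ on the strand of the gene. Capitals mark matches on either strand: TATAAA, the letters of a TATA box; CACCTG, an E-box of the acinar factor PTF1A; its palindromic form CAGCTG; or TGGGAA, the core bound by the RBPJ partner of that factor. The stretches are chr7:119459273-119459522 (Gp2, minus strand), chr7:131322293-131322542 (Cuzd1, minus strand), chr7:28540635-28540884 (Sycn, plus strand) and chr9:21918184-21918433 (Rab3d, minus strand).

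Gp2: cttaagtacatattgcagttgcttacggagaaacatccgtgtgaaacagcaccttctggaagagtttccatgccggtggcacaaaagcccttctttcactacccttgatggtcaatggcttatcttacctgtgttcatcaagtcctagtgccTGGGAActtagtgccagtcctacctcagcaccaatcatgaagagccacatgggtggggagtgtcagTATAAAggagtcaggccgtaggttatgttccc
Cuzd1: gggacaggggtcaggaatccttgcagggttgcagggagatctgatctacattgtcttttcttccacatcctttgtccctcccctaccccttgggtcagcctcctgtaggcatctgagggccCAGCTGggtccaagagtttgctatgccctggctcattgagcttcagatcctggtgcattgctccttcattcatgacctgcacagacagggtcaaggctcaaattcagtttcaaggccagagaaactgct
Sycn: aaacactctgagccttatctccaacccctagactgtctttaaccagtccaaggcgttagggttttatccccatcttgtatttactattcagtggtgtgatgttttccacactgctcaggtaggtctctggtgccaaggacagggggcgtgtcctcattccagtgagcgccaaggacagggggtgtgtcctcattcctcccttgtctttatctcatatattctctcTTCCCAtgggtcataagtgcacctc
Rab3d: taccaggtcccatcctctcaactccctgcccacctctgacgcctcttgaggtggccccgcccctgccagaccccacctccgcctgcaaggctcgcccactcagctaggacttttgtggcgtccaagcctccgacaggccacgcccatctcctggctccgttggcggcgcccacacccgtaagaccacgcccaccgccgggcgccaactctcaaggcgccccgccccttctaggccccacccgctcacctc

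Gp2 held TATAAA at 32 to 27 bases before its start and TGGGAA at 98 to 93 bases. Cuzd1 held CAGCTG at 129 to 124 bases, and Sycn held TGGGAA on the other strand at 25 to 20 bases. Rab3d held none of the marked letters. It had GGGCGG, the letters of a GC box, on the other strand at 194 to 189 and at 31 to 26 bases. Promoters were matched for 6 of the 10 genes, the others being Serpini2 and Vamp8. Serpini2 had CACCTG at 109 to 104 bases and, far upstream on the other strand, TATAAA at 244 to 239 bases. Vamp8 had no match to any letters searched. Zg16, Dmbt1 and Vamp2 were not matched. Promoters on chromosome 18, where Rab27b lies, were left out of the matching.

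Among 32851 promoters of the same length, searched on both strands, the letters TATAAA were held by 12.4% and the palindromic E-box CAGCTG by 13%. The E-box CACCTG was held by 17.2%, the RBPJ core TGGGAA by 21.6% and the GC box GGGCGG by 32.7%. AGATAA, the core of GATA factors, was present once in Gp2 and Serpini2 and at 2 places in Sycn, against 9.99% of all promoters. The general E-box CANNTG, which includes the E-boxes above, was found at 2 places each in Gp2, Cuzd1 and Serpini2 (66.2% of all promoters). The E-box CATATG, bound by the acinar factor MIST1 (3.46% of all promoters), the core AAGGTCA of NR5A2 (4.08%) and the core TGANTCA shared by BACH and AP-1 factors (6.75%) were in none of the 6 windows. The GC content was 48.4% in Gp2, 53.2% in Cuzd1, 49.2% in Sycn, 30.4% in Serpini2, 43.6% in Vamp8 and 69.2% in Rab3d, and the median of all promoters was 52.4%. A match is a description of these letters and not a measured binding site.

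The libraries held 72299745 to 172029360 counts. The 32 digestive enzyme genes took 85.1 to 87.2% of the counts in Bach2KO mice and 86.6 to 88.6% in Bach2WT mice, so that the tissue label was met by its defining genes. Bach2 itself had 16, 3, 12 and 14 counts in Bach2KO mice 1 to 4 and 4, 4, 31 and 6 in Bach2WT mice 1 to 4, which is too few to check the genotype, and the deleted part cannot be seen in a count per gene. Bach2KO 3 stood apart on the first principal component, at 101.8 against -34.8 to 7.22 for the other libraries. The scaling factors that edgeR computed (TMM, trimmed mean of M values) were 1.05 to 1.18 in Bach2KO mice and 0.826 to 0.859 in Bach2WT 2 to 4, whereas Bach2WT 1 had 1.10. The labels name no batch. The mice were kept as independent colonies in Rostock and Lübeck. Which colony each sequenced mouse came from is not given in the sources used here. Nor is it given whether Bach2WT 2 to 4 were extracted or sequenced apart from the other libraries. Such differences and the genotype cannot be told apart in comparisons that rest on these 3 mice, such as that of Zg16. The results were therefore also computed without each of these libraries and with other scalings.

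The RNA levels of the 10 genes per length spanned 5 orders of magnitude, and each granule gene was above each exocytosis gene, from Serpini2 over Rab3d (2.82-fold in mean FPKM) upward. Protein was not measured here. Levels between genes are compared as FPKM, which are proportional to the deposited counts per length of gene after division by a size factor. Zg16 had 11684 ± 602 FPKM in Bach2KO mice and 15214 ± 2553 FPKM in Bach2WT mice (mean ± SD, n = 4). Sycn had 11936 ± 1533 and 13810 ± 1541 FPKM. In Bach2WT mice, Zg16 ranked 15th and Sycn 16th of all genes by mean FPKM.

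Gp2 followed with 2079 ± 494 FPKM in Bach2KO mice and 1875 ± 129 FPKM in Bach2WT mice (mean ± SD, n = 4), at rank 26. Dmbt1 had 658 ± 161 and 828 ± 173 FPKM at rank 32, and Cuzd1 had 351 ± 27.7 and 399 ± 42.5 FPKM at rank 42. Serpini2 had the lowest RNA level of the granule genes, with 50.6 ± 8.53 and 51.8 ± 16.5 FPKM at rank 175. These 6 genes made up 3.30 to 3.95% of all counts in Bach2KO mice and 3.27 to 3.68% in Bach2WT mice.

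Among the exocytosis genes, Rab3d had 16.5 ± 3.04 FPKM in Bach2KO mice and 19.9 ± 1.42 FPKM in Bach2WT mice (mean ± SD, n = 4), and Vamp8 had 12.7 ± 1.75 and 15.2 ± 1.94 FPKM. Vamp2 was much lower, with 1.13 ± 0.279 and 1.01 ± 0.151 FPKM, and Rab27b was at 0.135 ± 0.0203 and 0.106 ± 0.0216 FPKM. The ranks of Rab3d, Vamp8, Vamp2 and Rab27b in Bach2WT mice were 322, 406, 2878 and 9147. Of the granule SNAREs, Vamp8 thus exceeded Vamp2 13.1-fold in mean FPKM over the 8 libraries, and Vamp2 exceeded Rab27b 8.89-fold.

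The order Zg16, Sycn, Gp2, Dmbt1, Cuzd1, Serpini2, Rab3d, Vamp8, Vamp2 and Rab27b held between neighbours in all 8 libraries, except for the first pair. Zg16 was above Sycn in 6 of 8 libraries, with a ratio of means of 1.04, and their ranges overlapped. Rab3d was above Vamp8 within each of the 8 libraries, but the ranges over libraries overlapped. The ranges of all other neighbours were separate. Different genes differ in how well they are captured and counted, and no test was made between them.

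**Figure D1:**
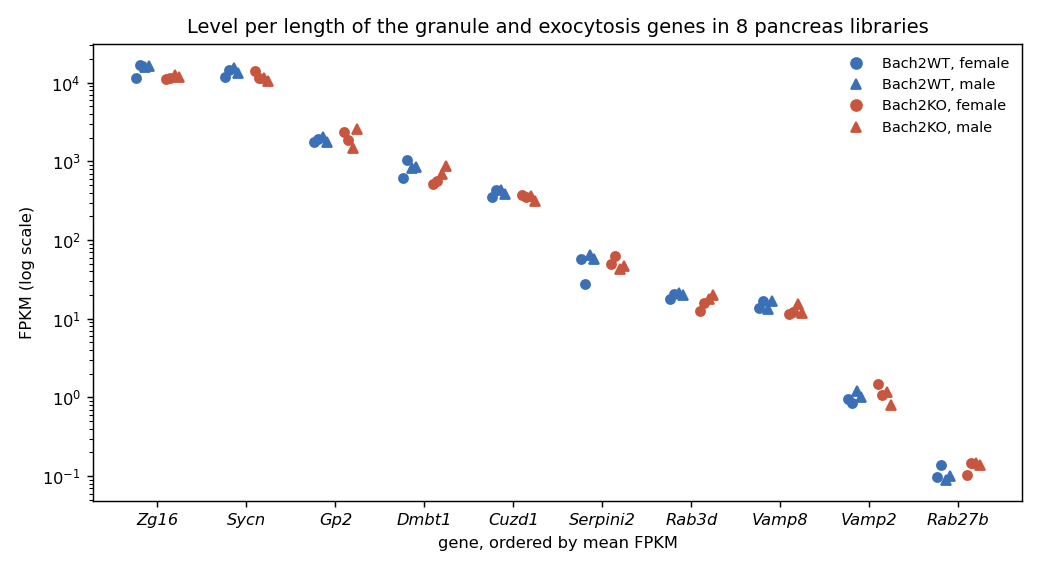
Level per length (FPKM, log axis) of the 6 granule and 4 exocytosis genes in each of the 8 libraries, with Bach2WT in blue, Bach2KO in red, circles for females and triangles for males. Zg16 and Sycn lie at 10666 FPKM or more in every library, and Rab27b lies at 0.148 FPKM or less.

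The comparison of Bach2KO with Bach2WT mice asked whether the absence of Bach2 altered the transcripts of the granule and its release. None of the 10 genes passed the threshold of 0.05 after adjustment over the 12820 genes tested, in edgeR or in DESeq2. At this threshold edgeR called 0.0078% of all genes, which is 1 gene. At an unadjusted p under 0.05, 1 of the 10 genes passed (Zg16), against 7.46% of all genes. The means of 7 of the 10 genes were lower in Bach2KO mice with TMM scaling, as were 45.3% of all genes, but 1 of 10 with total counts or enzyme counts as library size. Those scalings shifted all genes alike, so that 18.4 and 16.7% of all genes were lower with them. None of the 10 genes was without overlap between the genotypes, a state reached by 1.92% of all genes on the lower and 2.57% on the higher side. The sizes below are log2 fold changes of Bach2KO over Bach2WT with their standard errors, and CPM (counts scaled to library size) carry the TMM factors.

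Zg16 had 14641, 14947, 15963 and 15028 CPM in Bach2KO mice 1 to 4 and 14690, 21600, 20360 and 20863 CPM in Bach2WT mice 1 to 4. All Bach2KO libraries lay below Bach2WT 2 to 4, and Bach2WT 1 lay among the Bach2KO libraries. The fold change of Zg16 was -0.36 ± 0.16 (95% interval -0.70 to -0.01), with an unadjusted p of 0.0444 and an adjusted p of 0.663 in edgeR. Without Bach2WT 1 it was -0.47 with an unadjusted p of 0.000956 and an adjusted p of 0.226 in edgeR, and without Bach2KO 3 it was -0.40 (unadjusted p = 0.04999). Leaving out any of the other 6 mice ended the unadjusted call, with fold changes of -0.35 to -0.30 and unadjusted p of 0.0754 (without Bach2KO 4) to 0.113 (without Bach2WT 2) in edgeR. It was also lost without the filter (0.0707), with a minimum of 10 counts in each mouse (0.0593) and with the replicate number as a block (0.0506). As a share of all counts, however, Zg16 made up 1.72, 1.60, 1.67 and 1.74% in Bach2KO mice and 1.62, 1.85, 1.70 and 1.72% in Bach2WT mice. These shares overlapped widely, and the fold change was -0.03 with total counts and -0.01 with enzyme counts as library size, so that the size of the Zg16 difference depended on the scaling.

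Sycn had 8300, 6521, 6534 and 6069 CPM in Bach2KO mice 1 to 4 and 6737, 8207, 8650 and 7538 CPM in Bach2WT mice 1 to 4. Bach2KO 1 was the one Bach2KO library within the range of Bach2WT 2 to 4, and Bach2WT 1 was again the lowest of its group. The fold change was -0.18 ± 0.16, with an adjusted p of 0.857 in edgeR, and turned to 0.13 with total counts and 0.16 with enzyme counts as library size. Cuzd1 showed the same arrangement of libraries, with 877, 834, 843 and 716 CPM in Bach2KO mice and 805, 996, 989 and 865 CPM in Bach2WT mice. The fold change of Cuzd1 was -0.16 ± 0.15 (adjusted p = 0.871 in edgeR), or 0.15 and 0.17 with the total and the enzyme counts. Without Bach2KO 1 the fold change of Sycn was -0.29, and without Bach2KO 4 that of Cuzd1 was -0.10.

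Dmbt1 had 4203, 4440, 5359 and 6916 CPM in Bach2KO mice 1 to 4 and 4799, 8057, 6365 and 6690 CPM in Bach2WT mice 1 to 4. The female Bach2KO mice had the lowest values, and Bach2KO 4 exceeded all Bach2WT libraries but Bach2WT 2. The fold change of Dmbt1 was -0.31 ± 0.20 with an adjusted p of 0.789 in edgeR, and it was 0.02 and 0.04 with total counts and enzyme counts. Without Bach2WT 1 or without Bach2KO 4 its unadjusted p fell under 0.05 (0.0315 and 0.0363), with fold changes of -0.43 and -0.47. The fold change shrank to -0.19 without Bach2WT 2 (unadjusted p = 0.394 in edgeR) and to -0.22 and -0.24 without Bach2KO 1 and Bach2KO 2.

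Gp2 was the one granule gene with a higher mean in Bach2KO mice. It had 4977, 3914, 2994 and 5277 CPM in Bach2KO mice 1 to 4 and 3617, 3956, 4068 and 3551 CPM in Bach2WT mice 1 to 4. The Bach2KO libraries thus held both the lowest and the highest values. The coefficient of variation was 24.3% in Bach2KO and 6.66% in Bach2WT mice, whereas for Zg16 it was 3.77% and 16.3%. The fold change of Gp2 was 0.18 ± 0.18 with an adjusted p of 0.898 in edgeR, and single mice moved it from 0.06 (without Bach2KO 4) and 0.10 (without Bach2KO 1) to 0.29 (without Bach2KO 3).

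Relative to the counts of the digestive enzymes, Gp2 had 0.680, 0.481, 0.365 and 0.718% in Bach2KO mice 1 to 4 and 0.457, 0.392, 0.384 and 0.334% in Bach2WT mice 1 to 4. On this scale 3 of the 4 Bach2KO libraries lay above all Bach2WT libraries, and Bach2KO 3 lay inside their range. The fold change was then 0.52, with an unadjusted p of 0.0177 and an adjusted p of 0.304 in edgeR. Gp2, Vamp2 and Rab27b passed the unadjusted p with this scaling (3 of 10 genes), all of them higher in Bach2KO mice, beside 13.7% of all genes on that side.

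Serpini2 had 73.9, 91.3, 61.4 and 68.0 CPM in Bach2KO mice 1 to 4 and 82.1, 39.7, 92.3 and 82.3 CPM in Bach2WT mice 1 to 4. Bach2WT 2 had the lowest value, and the other 7 libraries overlapped. The fold change was -0.01 ± 0.23, with a 95% interval from -0.51 to 0.50 and an adjusted p of 0.998 in edgeR, and its sign differed between scalings. The median fold change of the 6 granule genes was -0.17, beside 0.05 for all genes tested. With total counts these medians were 0.14 and 0.35, and with enzyme counts as library size 0.17 and 0.37, so that the sign of the granule median turned. The granule median stayed below that of all genes. As these scalings shift all genes nearly alike, they could not change that order and do not test it.

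**Figure D2:**
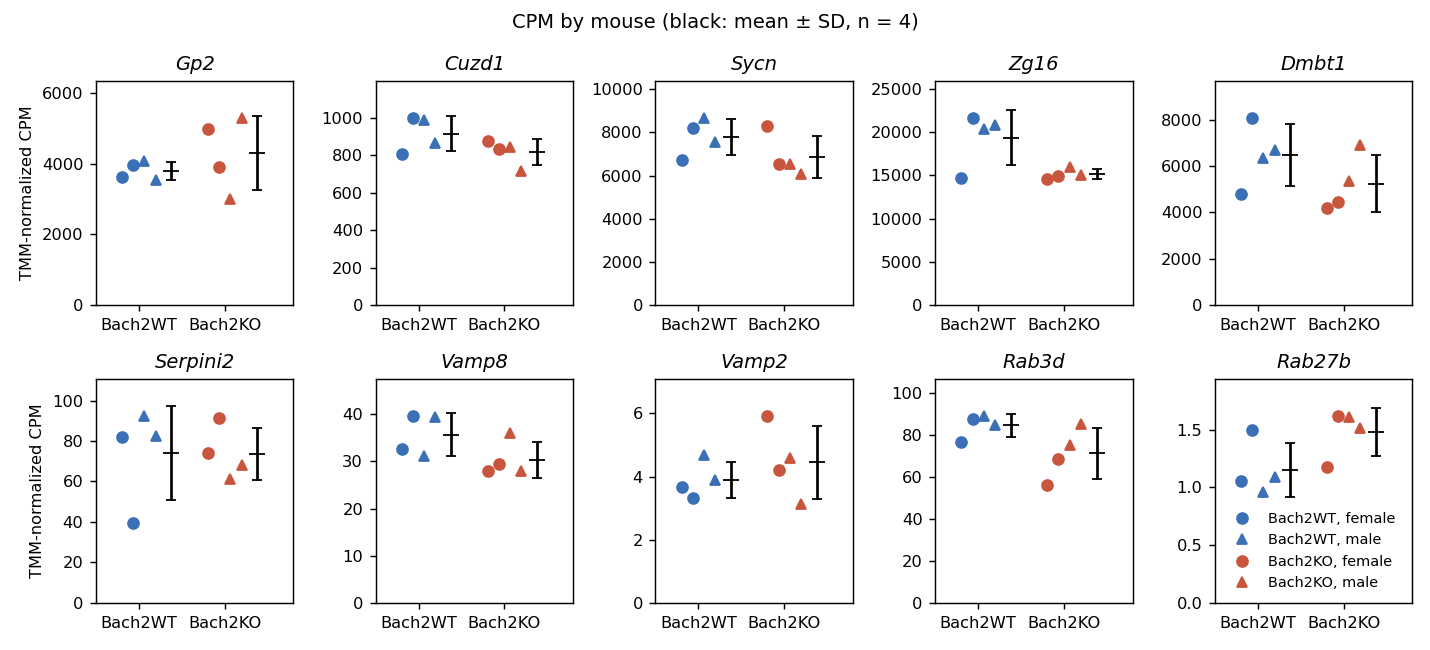
CPM with TMM factors of each of the 10 genes in every mouse (linear axes from 0), with Bach2WT in blue, Bach2KO in red, circles for females, triangles for males, and the mean ± SD of 4 mice in black. The genotypes overlap in all 10 genes; for Zg16 this overlap comes from Bach2WT 1 at 14690 CPM.

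Vamp8, the main SNARE of the zymogen granule, had 27.9, 29.4, 35.9 and 27.9 CPM in Bach2KO mice 1 to 4 and 32.6, 39.6, 31.1 and 39.5 CPM in Bach2WT mice 1 to 4. Of the Bach2KO libraries, 3 lay below all Bach2WT libraries, and Bach2KO 3 lay within their range. The fold change was -0.24 ± 0.15 with an adjusted p of 0.788 in edgeR, and it was 0.06 and 0.09 with total counts and enzyme counts. Without Bach2KO 3 it was -0.35, with an unadjusted p of 0.0488.

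Vamp2, which also serves the release of insulin granules, had 5.91, 4.20, 4.60 and 3.12 CPM in Bach2KO mice 1 to 4 and 3.68, 3.33, 4.66 and 3.90 CPM in Bach2WT mice 1 to 4. The ranges overlapped, with the highest and the lowest value both in Bach2KO mice. The fold change was 0.19 ± 0.21 with an adjusted p of 0.910 in edgeR, and single mice moved it, to 0.03 and 0.13 without Bach2KO 1 and Bach2WT 2 and to 0.33 and 0.30 without Bach2KO 4 and Bach2WT 3. The summed CPM of 13 islet markers, all of them detected, ranged from 234 to 2055 in Bach2KO mice and from 189 to 2345 in Bach2WT mice. It was highest in Bach2KO 3 and Bach2WT 4, which had 4.60 and 3.90 CPM of Vamp2. The part of islet cells in the level of Vamp2 was not tested.

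Rab3d, a Rab of the mature granule, had 56.0, 68.5, 75.2 and 85.3 CPM in Bach2KO mice 1 to 4 and 76.6, 87.7, 89.0 and 84.8 CPM in Bach2WT mice 1 to 4. The Bach2KO values were spread over a wider range, and Bach2KO 4 lay inside that of the Bach2WT mice. The coefficient of variation was 17.2% in Bach2KO and 6.60% in Bach2WT mice. The fold change was -0.25 ± 0.16 with an adjusted p of 0.788 in edgeR, and 0.06 and 0.09 with total counts and enzyme counts. Without Bach2KO 1 it was -0.15.

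Rab27b had the lowest level of the 10 genes, with 191, 134, 122 and 292 counts in Bach2KO mice 1 to 4 and 95, 196, 138 and 76 counts in Bach2WT mice 1 to 4. This gave 1.18, 1.62, 1.61 and 1.51 CPM in Bach2KO mice and 1.05, 1.49, 0.961 and 1.09 CPM in Bach2WT mice. Of the Bach2KO libraries, 3 lay above all Bach2WT libraries, and Bach2KO 1 lay below Bach2WT 2. The fold change of 0.36 ± 0.26 was the largest among the 10 genes, and its interval was the widest, from -0.21 to 0.93 (adjusted p = 0.818 in edgeR). With enzyme counts as library size it was 0.68, with an unadjusted p of 0.0300 and an adjusted p of 0.327 in edgeR. The median fold change of the 4 exocytosis genes was -0.02 with TMM, 0.28 with total counts and 0.31 with enzyme counts.

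**Figure D3:**
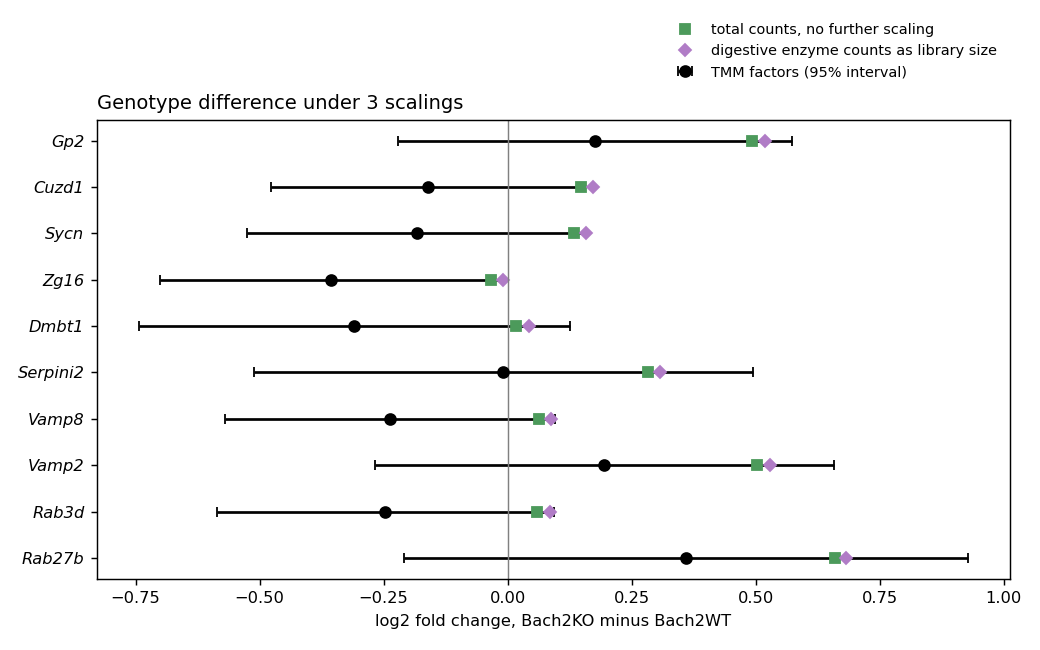
Log2 fold change of Bach2KO over Bach2WT for each of the 10 genes: black circles with 95% intervals use TMM factors, green squares total counts, and purple diamonds the enzyme counts as library size. The interval excludes 0 for Zg16 alone (-0.70 to -0.01), and with the other scalings 9 of the 10 genes lie above 0.

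The sexes were compared in the 2 females and 2 males of each genotype. With genotype as a covariate, 0 of the 10 genes passed an unadjusted p of 0.05 in edgeR, against 5.29% of all genes. The differences of males minus females ran from -0.07 in Rab27b to 0.26 in Dmbt1 (log2). The interaction of sex and genotype, which asks whether the genotype difference differed between the sexes, passed in 0 of the 10 genes, against 6.14% of all genes. It was closest to the threshold in Serpini2, at -0.87 ± 0.43 with an unadjusted p of 0.0659 and an adjusted p of 0.835 in edgeR. In females alone the fold change of Serpini2 was 0.44, where Bach2WT 2 had the lowest value of all libraries, and in males alone it was -0.43. Each cell of this design held 2 mice.

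Profiles over the 8 libraries were compared as the root mean square difference of log2 CPM values, each gene centred on its mean, where a small value marks genes that vary alike in these libraries. Within the 10 genes, Cuzd1 and Sycn were closest, at 0.0871, and Cuzd1 and Zg16 stood at 0.161. Dmbt1 was closest to Rab3d (0.167). Serpini2 was the farthest from the others, at 0.374 or more from each of them.

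Among all genes tested, the profile nearest to Gp2 was that of Klk1 (0.105), a kallikrein that is itself stored in the granule, followed by Dstn (0.115), an actin-severing protein. Rab3d was nearest to Elapor1 (0.0432) and P3h4 (0.0555). Zg16 was nearest to Atp5g2 (0.0439), a subunit of the mitochondrial ATP synthase, and Epn1 (0.0537). Cuzd1 was nearest to Eif1 (0.0542), a translation initiation factor, and Tm2d2 (0.0723), and Sycn to Eif1 (0.0814) and Zdhhc16 (0.0936). Of the nearest genes named here and in what follows, Klk1 was the only one on the list of digestive enzymes.

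The remaining nearest genes were Hapln4 (0.0899) and Gstp1 (0.0958) for Dmbt1, Pcmtd1 (0.135) and Hmgb1 (0.139) for Serpini2, and Lsm4 (0.0679) and Mapk3 (0.0694) for Vamp8. For Vamp2 they were Eif3m (0.0959) and Lemd2 (0.118), and for Rab27b they were Atad3a (0.0636) and Actb (0.0852). With 12820 genes and 8 libraries, near profiles arise among unrelated genes, and these distances are descriptions that share the scaling of the libraries.

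Of the 6 granule genes, 5 lie on chromosome 7, which holds 7.78% of the genes tested. On GRCm39, these are Sycn (ENSMUSG00000084174, chr7:28240310-28241634, plus strand), Gp2 (ENSMUSG00000030954, chr7:119041760-119058508, minus strand), Zg16 (ENSMUSG00000049350, chr7:126649328-126686500, minus strand), Dmbt1 (ENSMUSG00000047517, chr7:130633776-130723357, plus strand) and Cuzd1 (ENSMUSG00000040205, chr7:130910283-130924021, minus strand). Serpini2 (ENSMUSG00000034139) lies at chr3:75149677-75177385 on the minus strand. The exocytosis genes are Vamp8 (ENSMUSG00000050732, chr6:72362206-72367686, minus strand), Vamp2 (ENSMUSG00000020894, chr11:68979316-68983210, plus strand), Rab3d (ENSMUSG00000019066, chr9:21818787-21829488, minus strand) and Rab27b (ENSMUSG00000024511, chr18:70112202-70274676, minus strand).

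Dmbt1 and Cuzd1 both lie inside the interval annotated for Fgfr2, on the opposite and on the same strand. Fgfr2 had a mean of 58.8 counts per library, against at least 60051 counts of Cuzd1 and 367733 of Dmbt1 in every library. Sycn lies inside the interval of Samd4b, on the opposite strand, which had a mean of 742 counts against at least 494708 of Sycn. The counts of these genes are thus far above those of the genes around them. How reads shared by overlapping genes were counted is not given in the sources used here, and the counts of Fgfr2 and Samd4b are uncertain for that reason.

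The other genes of regulated exocytosis were described by 5 lists with 95 genes, of which 79 were tested. At an unadjusted p under 0.05, 5 of them were lower and 3 higher in Bach2KO mice, together 10.1% against 7.46% of all genes (3.56% lower and 3.9% higher, the shares beside which the counts of each list below stand), and none passed the adjusted threshold in edgeR, while 1 (Rab26) did in DESeq2. Without overlap between the genotypes, 4 of the 79 were lower and 2 higher, against 1.92 and 2.57% of all genes. The counts in each direction moved with the scaling: 0 were lower and 10 higher with total counts, and 0 and 11 with enzyme counts as library size. Of all genes, 0.367 and 12.4% were lower and higher with total counts, and 0.32 and 13.7% with enzyme counts, so that with these scalings the counts of the lists lay near the background. With TMM the share called was above it (10.1 against 7.46%), and whether the lists differ from all genes was not tested.

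Of the 24 secretory Rabs and their effectors, 2 were lower and 0 higher at an unadjusted p under 0.05, with a median fold change of -0.08. Rab26, a small GTPase of secretory granules, had 5.71, 5.95, 5.77 and 7.59 CPM in Bach2KO mice 1 to 4 and 9.71, 8.36, 12.8 and 10.5 CPM in Bach2WT mice 1 to 4. All Bach2KO libraries lay below all Bach2WT libraries. The fold change of Rab26 was -0.72 ± 0.18, with an unadjusted p of 0.00129 and an adjusted p of 0.360 in edgeR. It stayed negative with every alternative, from -0.84 to -0.39, and the adjusted p of DESeq2 was 0.0485. With total counts it was -0.41 (unadjusted p = 0.0512 in edgeR). Rab26 was named for separate ranges in these data, so that leaving out a mouse could hardly turn its sign. Rph3al, a Rab effector named after its values were seen, was the other gene, at -0.57 ± 0.24 (unadjusted p = 0.0305 in edgeR) with overlapping groups.

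Of the 25 SNAREs and their regulators, 1 was lower and 2 were higher at an unadjusted p under 0.05, with a median of 0.04. Napa, the α-SNAP that takes SNARE complexes apart with Nsf, had 23.5, 26.1, 27.9 and 27.6 CPM in Bach2KO mice 1 to 4 and 29.6, 35.0, 36.9 and 39.1 CPM in Bach2WT mice 1 to 4. The groups did not overlap, and the fold change was -0.42 ± 0.15 (unadjusted p = 0.0135, adjusted p = 0.582 in edgeR). With total counts it was -0.10 (unadjusted p = 0.436 in edgeR). Ykt6, named after its values were seen, was the other SNARE gene without overlap on the lower side, at -0.31 ± 0.16 (unadjusted p = 0.0697 in edgeR).

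On the higher side were Stx2, a syntaxin of the plasma membrane, and Cplx2, a complexin that binds assembled SNAREs. Stx2 had 0.562, 0.628, 0.502 and 0.736 CPM in Bach2KO mice 1 to 4 and 0.400, 0.328, 0.348 and 0.202 CPM in Bach2WT mice 1 to 4, from 14 to 142 counts. Its fold change was 0.92 ± 0.41 (unadjusted p = 0.0443, adjusted p = 0.663 in edgeR). Cplx2 had 1.75, 0.954, 1.68 and 0.808 CPM in Bach2KO mice and 0.522, 0.655, 0.738 and 0.749 CPM in Bach2WT mice, from 47 to 283 counts. Its fold change was 0.96 ± 0.34 (unadjusted p = 0.0142, adjusted p = 0.593 in edgeR).

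Neither gene overlapped between the genotypes, and both kept a positive sign with every alternative. Both were named for separate ranges in these data, and total counts and enzyme counts shift all genes upward. The kept sign was thus largely given by that choice and is no further support. Cplx2 is also made by endocrine cells, whose 13 markers had no separate ranges (234 to 2055 and 189 to 2345 CPM in Bach2KO and Bach2WT mice), and their part in its level was not tested. The target SNAREs that pair with Vamp8 and Vamp2 at the acinar membranes included Stx3, at 0.73 ± 0.36 (unadjusted p = 0.0649 in edgeR), Stx4a, at 0.06 ± 0.23, and Snap23, at -0.11 ± 0.41, for which the groups overlapped.

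Of the 9 exocyst subunits, which tether vesicles to the membrane, 1 was lower at an unadjusted p under 0.05, and the median was -0.08. This was Exoc3, with 2.19, 1.69, 1.45 and 2.21 CPM in Bach2KO mice 1 to 4 and 3.02, 2.68, 2.58 and 2.66 CPM in Bach2WT mice 1 to 4. The groups did not overlap, and the fold change was -0.53 ± 0.22 (unadjusted p = 0.0295, adjusted p = 0.637 in edgeR), or -0.23 with total counts. Of the 10 calcium sensors and priming factors, 0 passed the unadjusted p in edgeR and 1 in DESeq2, and the median was 0.22. Of the 11 myosins and apical actin genes, Myo5c was lower (-0.52 ± 0.22, unadjusted p = 0.0360 in edgeR) and Actb higher (0.40 ± 0.17, unadjusted p = 0.0309 in edgeR), both with overlapping groups and named after their values were seen.

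**Figure D4:**
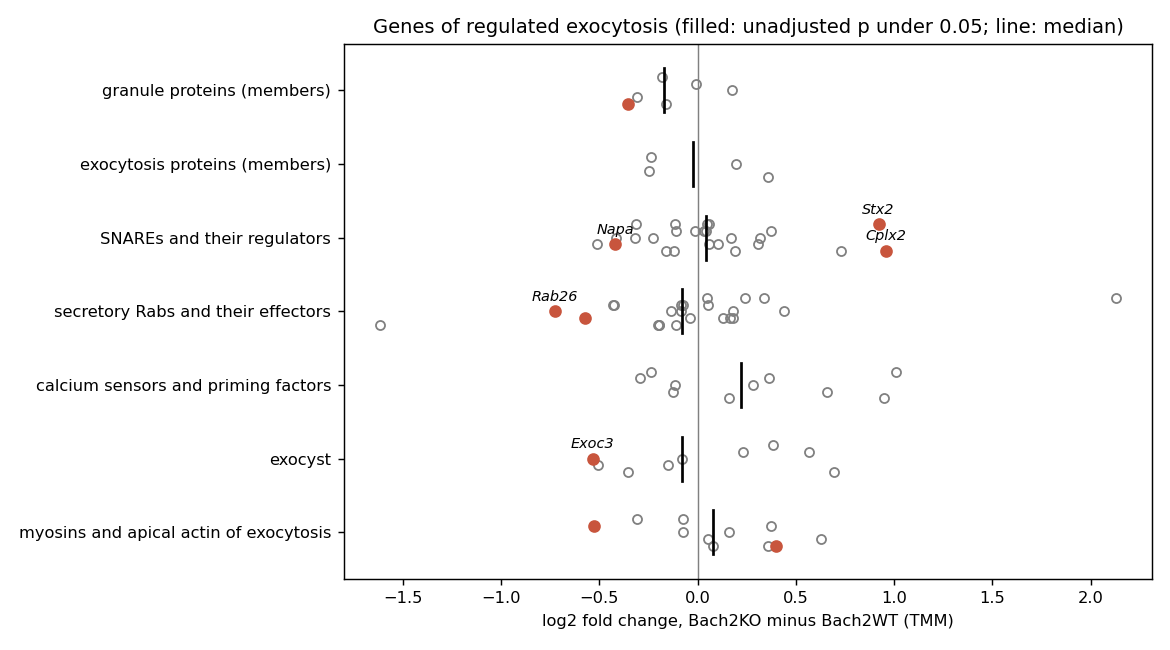
Log2 fold change of Bach2KO over Bach2WT (TMM) for the tested genes of the 2 member lists and the 5 lists of regulated exocytosis, one circle per gene, filled red at an unadjusted p under 0.05, with the median as a black line. Names mark the 5 pathway genes that also had no overlap between the genotypes; the list medians lie between -0.17 and 0.22.

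The median fold changes of the 5 lists moved up with total counts, to 0.34 for the SNAREs, 0.23 for the Rabs, 0.52 for the calcium sensors, 0.22 for the exocyst and 0.35 for the myosins and actin genes, beside 0.35 for all genes.

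The enzymes that the granule stores were compared beside its own proteins. Of the 32 digestive enzyme genes, 23 had a lower and 9 a higher mean in Bach2KO mice with TMM, but 16 and 16 with total counts, where 45.3 and 18.4% of all genes were lower, and the median fold change was -0.30 or 0.02. At an unadjusted p under 0.05, 11 were lower and 1 higher with TMM in edgeR, against 3.56 and 3.9% of all genes, and 7 and 4 with total counts, against 0.367 and 12.4%. None passed the adjusted threshold in edgeR with the filter on low counts, 2 did without it, and 4 did in DESeq2. The granule genes, at a median of -0.17 with TMM and 0.14 with total counts, lay between the enzymes and all genes. A change of scaling keeps this order, so that total counts add no test of it. The 6 acinar transcription factors had a median of -0.23 with TMM and 0.08 with total counts, and 0 of them passed the unadjusted p in edgeR or in DESeq2.

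Markers of the other cells of the tissue were detected at low sums. In Bach2KO and Bach2WT mice, the ranges of summed CPM were 190 to 263 and 231 to 267 for duct cells, 0.857 to 3.14 and 0.223 to 2.40 for T cells, and 1.23 to 148 and 2.23 to 60.6 for B and plasma cells. They were 24.2 to 37.7 and 17.6 to 32.6 for macrophages, up to 2.86 and up to 2.78 for mast cells and platelets, and 47.4 to 82.8 and 35.8 to 85.8 for stellate cells and fibroblasts. Endothelial cells had 31.8 to 67.2 and 24.1 to 36.1, adipocytes 3.32 to 12.8 and 1.28 to 21.2, and red blood cells 54.9 to 209 and 31.9 to 259. The ranges of the genotypes overlapped for all of these sums, and no listed marker was at 0 in every library. Single markers, named after their values were seen, did separate the genotypes with TMM: Krt7 and Epcam of duct cells (0.57 ± 0.22 and 0.81 ± 0.20) and Cdh5 of endothelial cells (1.07 ± 0.33) were higher in Bach2KO mice without overlap. Plin1 of adipocytes was lower without overlap, with means of 0.0216 and 0.607 CPM in Bach2KO and Bach2WT mice. With overlap, C1qb and Lyz2 of macrophages (0.95 ± 0.31 and 1.15 ± 0.35) and Gcg of islet cells (1.33 ± 0.59) were higher at an unadjusted p under 0.05, and none of these 7 passed the adjusted threshold in edgeR or DESeq2. These genes do not stand for their lists. With TMM, 6 of 11 tested duct markers and 3 of 10 macrophage markers were lower by sign. So were 1 of 6 endothelial, 3 of 13 islet and 3 of 4 adipocyte markers, beside 45.3% of all genes. C1qa of macrophages was at -0.64 ± 0.30 (unadjusted p = 0.0515 in edgeR), opposite in sign to C1qb. The part of these cells in the levels of the granule and exocytosis genes was not tested.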

How the data were processed

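RNA-seq was performed on pancreatic tissue of 4 Bach2KO and 4 Bach2WT mice, 2 females and 2 males each, from poly(A) RNA. Per the labels, the submitters' processing notes name fastp, HISAT2 2.2.1, featureCounts 2.0.6 and mm39, with no roles given; the annotation and the strand setting are not given in the sources used here. The authors deposited counts per gene without normalization, the signal made by dividing each count by 1 size factor per library, and FPKM values. Each FPKM value equals that signal multiplied by 1 common constant (9.006) and divided by gene length. The deposited table also holds the authors' own fold changes and p-values, which were not used. All per-library columns matched a sample.

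Genotypes were compared on the deposited counts with edgeR 4.0.16 in R 4.3.3 (quasi-likelihood test, TMM factors, filterByExpr, all 8 mice, no covariate). Adjustment of p-values (Benjamini-Hochberg) ran over the 12820 of 21434 genes tested. The common dispersion was 0.192, a coefficient of variation of 43.8%. A standard error is the fold change divided by the square root of F. Log2 CPM used a prior count of 2. Groups were said not to overlap when the CPM ranges were separate. Mice are separate animals, and no 2 libraries of a group agreed within sampling noise. The total counts per library, 72299745 to 172029360, do not bound the counting error of a single gene. Counting error is relatively larger in genes with few counts, such as Stx2 with 14 to 142. Its part in their spread was not tested. The procedure was tested on simulated counts.

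The members and lists were chosen with earlier results of these data known. Named were the 10 members, listed exocytosis genes with an unadjusted p under 0.05 and no overlap, the 2 genes nearest in profile to each member, and genes overlapping a member. Alternatives were DESeq2 1.42.0, RLE factors, total counts, library sizes without digestive enzymes, the enzyme counts as library size, no filter, at least 10 counts in every library, sex or replicate number as a term, a gene length correction (loess, span 0.3), each sex alone, other pseudocounts, and leaving out each library. Marker lists covered digestive enzymes, acinar transcription factors, islet, duct, T, B and plasma, mast, stellate, endothelial, fat and red blood cells, macrophages and platelets.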

Additional observations from a re-analysis of the deposited data

Results flagged for a closer look

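Within the 4 Bach2KO mice, Rab26 reached 7.59 CPM in Bach2KO 4, far from 5.71, 5.95 and 5.77 CPM in the other mice. Its gap to the nearest mouse was 0.873 of the range of the group, above the 95% critical value of Dixon's test for 4 samples. This was 1 of 30 groups of 4 mice that were tested, over the members and the 5 named pathway genes, and chance gives about 1 in 20. Bach2KO 4 remained below all Bach2WT mice, and without it the fold change of Rab26 was -0.83. The cause was not tested.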

How the results depend on the processing

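No member passed the adjusted threshold with any alternative. With total counts and with enzyme counts as library size, respectively, the median of all genes moved from 0.05 to 0.35 and 0.37, and 97.1 and 97.7% of the genes at an unadjusted p under 0.05 were higher in Bach2KO mice, against 52.2% with TMM. In the same order, Cuzd1 became 0.15 and 0.17, Sycn 0.13 and 0.16, Dmbt1 0.017 and 0.044, Serpini2 0.28 and 0.31, Vamp8 0.063 and 0.087, and Rab3d 0.059 and 0.085; members below 0 numbered 1 and 1 in place of 7, members past the unadjusted p 3 and 3 in place of 1, pathway genes lower 0 and 0 in place of 5 and higher 10 and 11 in place of 3. The granule median became 0.14 and 0.17, and the exocytosis median 0.28 and 0.31. Serpini2 was also positive with at least 10 counts in every library (0.0057), sex as a covariate (0.0040), the replicate block (0.035) and females only (0.44), and leaving out single mice gave -0.22 to 0.12. Vamp2 was -0.16 in males only.

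Genes past the adjusted threshold (1 in edgeR) were 58 with DESeq2, 73 with no filter, 0 with at least 10 counts in every library, 0 with sex as a covariate, 2 in females, 5 in males, and 0 each time a single mouse was left out. Members past the unadjusted p were 0 with no filter, with at least 10 counts, in females and in males, and 0 to 2 without single mice (2 without Bach2KO 3 and 2 without Bach2WT 1; 0 without Bach2KO 1 or 2 or Bach2WT 2, 3 or 4). Pathway genes lower were 8 with the gene length correction, 2 in females, 2 in males and 3 to 6 without single mice; those higher were 5 with DESeq2, 6 with no filter, 1 with the length correction, 1 in females and 1 to 5 without single mice. The length correction moved the median of all genes to -0.06, the share of higher calls to 30.3% and the exocytosis median to -0.14; that share was 70.2% in males only. The granule median was -0.043 in females and -0.31 in males, and the exocytosis median -0.13 in males. For the interaction of sex and genotype, 1 member passed the unadjusted p with DESeq2 and 1 with no filter, and 0 to 2 without single mice; for sex it was 0 to 1. The causes were not tested.

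Replicate numbers showed no pairing of mice 2 to 4. Deviations of mice with equal numbers correlated at 0.21, -0.03, -0.04 and -0.05, against -0.16 to 0.11 between unequal numbers. The highest value, 0.21, was that of Bach2KO 1 and Bach2WT 1, and its cause was not tested. With the replicate block, 0 genes passed the adjusted threshold and 0 members the unadjusted p. Among the members, the coefficient of variation between mice that edgeR fitted was 19.3% (Vamp8) to 28.5% (Rab27b). Counts of Rab27b went down to 76. The part of depth in the width of the intervals was not tested.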
